A study of Mus musculus with 32 samples.

Results

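The nuclear-encoded genes of the mitochondrial respiratory chain were followed under endoplasmic reticulum (ER) stress in MEFs, fibroblasts cultured from mouse embryos. Genes were taken by symbol: those starting with Ndufa, Ndufb, Ndufc, Ndufs or Ndufv followed only by digits, those starting with Uqcr, Cox4 to Cox8 or Atp5, and Sdha, Sdhb, Sdhc, Sdhd and Cyc1, without pseudogene symbols. The rule took 84 of 20234 genes: 36 of complex I, 4 of complex II, 9 of complex III, 18 of complex IV, 15 of complex V and 2, Atp5s and Atp5sl, that carry the ATP synthase prefix without being subunits. A filter on low counts kept 78 of them. The other 6 (Cox4i2, Cox6b2, Cox7a1, Cox7b2, Cox8b and Cox8c) are isoforms known from lung, muscle, brown fat or testis. None of these 6 exceeded 0.247 CPM (counts scaled to a common library total) in any library, and Cox8b and Cox8c were at 0 counts in all 32 libraries, which allows up to 3 counts, or 0.155 CPM in the smallest library.

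The respiratory chain passes electrons from nutrients to oxygen in the inner mitochondrial membrane. Complex I (NADH dehydrogenase) and complex II (succinate dehydrogenase, also an enzyme of the TCA cycle) feed electrons to ubiquinone, complex III (cytochrome bc1) hands them to cytochrome c, and complex IV (cytochrome c oxidase) hands them to oxygen. Complex V, the ATP synthase, uses the proton gradient built by complexes I, III and IV. Most subunits are encoded in the nucleus, translated on cytosolic ribosomes and imported, while a few core subunits come from mitochondrial DNA. No gene with the symbol prefix of mitochondrial DNA was in the table, so those subunits were not analysed here. PERK, a kinase of the ER membrane, phosphorylates the initiation factor eIF2 under ER stress, which lowers translation of most mRNAs and raises that of a few, such as Atf4.

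ER stress came from thapsigargin, a blocker of the pump that fills the ER with calcium. The 4 conditions were control (0 h), 1 h, 16 h, and 16 h with a PERK inhibitor added for the last 4 h, with 4 samples each. The sources used here give no doses, no name for the inhibitor, no genotype and no solvent control. Cytosolic RNA and polysome RNA (from fractions with more than 4 ribosomes per mRNA) of each of the 16 samples were sequenced separately. A gene's translational efficiency is its polysome level divided by its cytosolic level. Levels are scaled to library totals, so every rise or fall given here is relative to the other mRNAs measured. A drop in translation shared by most mRNAs would not appear, and absolute amounts were not measured. The labels do not say whether replicates were separate cultures, so p-values cover only the differences among these samples, whose source may be technical.

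Library totals were 19.32M to 41.78M counts. All 10 fibroblast markers were present at 1 CPM or more in every condition, while summed levels of 5 epithelial, 4 endothelial and 5 immune markers did not exceed 2.77, 1.91 and 5.67 CPM in cytosolic RNA of any library. Ddit3, which encodes the stress-induced transcription factor CHOP, rose in cytosolic RNA 6.72-fold at 1 h and 32.5-fold at 16 h against control, and fell 10.4-fold with the inhibitor against 16 h. Cytosolic libraries of 16 h replicate 1 and control replicate 1 stood apart from their groups in the same way (correlation of their deviations from group means 0.665 over 12366 genes), as did polysome libraries of 1 h replicate 4, 16 h replicate 3 and control replicate 3 (0.444 to 0.574 over 12065 genes). Cytosolic libraries of 1 h replicate 2 and inhibitor replicate 2 deviated with the first pair less closely (0.432 to 0.518), and with each other (0.366). Counts of changed members are therefore also given without these libraries. Levels are in CPM with edgeR's TMM scaling, a change is called at a Benjamini-Hochberg adjusted p under 0.05 in edgeR's quasi-likelihood test across all genes, and log2 changes carry standard errors (SE).

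After 1 h of thapsigargin, most respiratory chain mRNAs fell in polysome RNA and fewer did so in cytosolic RNA. In polysome RNA 52 of 78 members fell and 5 rose, in cytosolic RNA 30 fell and 10 rose, and translational efficiency fell for 45 and rose for 8. Over all genes tested, 79.5% of 12065 were called in polysome RNA (38.5% lower), 56.2% of 12366 in cytosolic RNA (28.1% lower) and 67.8% of 12561 in translational efficiency (34.4% lower). The share of members that fell in polysome RNA was thus well above the background. In cytosolic RNA the share of members called in either direction, 51.3%, was near the background of 56.2%. By direction, the 30 lower and 10 higher of 78 members there stand against 28.1% lower and 28.1% higher of all genes. The cytosolic result turned with offsets that correct each library for coding length within bins of genes: the members' median was then 0.10, with 22 higher and 13 lower. The median log2 change of the members was -0.66 in polysome RNA, -0.11 in cytosolic RNA and -0.53 in translational efficiency, against 0.03, 0.00 and -0.01 for all genes tested. Summed over the members, the share of polysome counts was 0.738, 0.715, 0.735 and 0.743% in the 1 h libraries, against 1.24, 1.3, 1.26 and 1.28% in control libraries. These groups did not overlap. In bulk RNA, fewer cells of a type and less RNA per cell cannot be told apart. Without the libraries that stood apart, 61, 45 and 53 members were called in polysome RNA, cytosolic RNA and translational efficiency, against 57, 40 and 53 with all libraries. Without the 4 cytosolic libraries that deviated together, 47 and 51 were called in cytosolic RNA and efficiency. The smaller directions were less stable: 6 in place of 10 members were higher in cytosolic RNA without 1 h replicate 1 or 1 h replicate 2, and 3 in place of 5 in polysome RNA without control replicate 1 or control replicate 3 or with the length offsets. With these offsets 3 in place of 8 were higher in efficiency.

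**Figure D1:**
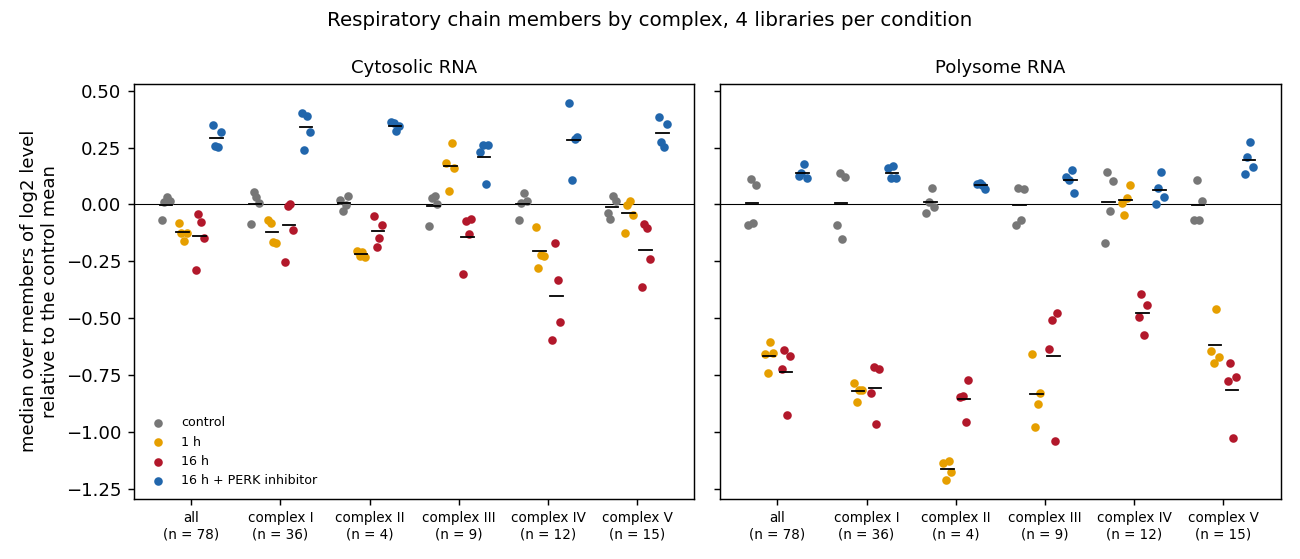
Median over the members of each complex of the log2 level relative to the control mean (vertical axis), for each library (points, 4 per condition, bars are their means), in cytosolic RNA (left) and polysome RNA (right). In polysome RNA the medians over all 78 members lie below control at 1 h and at 16 h in every library and, with the PERK inhibitor, at 0.12 to 0.18, above the control libraries (-0.09 to 0.11).

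After 16 h the picture in polysome RNA was similar in its counts. There 60 members fell and 6 rose relative to control, with 85.1% of all genes called, 42.3% higher and 42.9% lower. Under the length offsets 11 rose. In cytosolic RNA 32 fell and 16 rose (77.3% of all genes called, 37.9% higher and 39.4% lower), and translational efficiency fell for 49 and rose for 3 (64.2% of all genes called, 33% lower). The median log2 changes of the members were -0.74, -0.12 and -0.57, against -0.01, -0.01 and -0.04 for all genes tested. The members' summed share of polysome counts was 0.726, 0.731, 0.712 and 0.754% at 16 h, below every control library. In efficiency 6 in place of 3 members were higher without 16 h replicate 1 or control replicate 2, with DESeq2 or with RLE factors, and 5 without the sample block. Both comparisons use the same control libraries, so their likeness is no independent evidence. Compared directly, 16 h and 1 h differed in polysome RNA for 52 members (22 higher and 30 lower at 16 h, with 78.5% of all genes called, 38.4% higher and 40% lower) and in cytosolic RNA for 42 (19 higher and 23 lower, with 75.3% of all genes called, 37.7% higher and 37.7% lower). In translational efficiency 14 were higher and 10 lower at 16 h (28.1% of all genes called, 14.5% higher and 13.6% lower). Median log2 changes in this comparison were -0.04, -0.03 and -0.06. With offsets corrected for coding length, 34 members were higher in polysome RNA, with a median of 0.04, and 2 were lower in efficiency, with a median of 0.17. The polysome median was also positive without 16 h replicate 3 (0.06), and the cytosolic median was 0.006 with RLE factors. The signs of these medians thus depend on the processing and on single libraries.

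With the PERK inhibitor during the last 4 h, members were mostly higher than at 16 h without it. In polysome RNA 62 rose and 6 fell (82.8% of all genes called, 42.1% higher), in cytosolic RNA 60 rose and 6 fell (74.7% and 42.2%), and translational efficiency rose for 39 and fell for 12 (60.1%, 26.4% higher and 33.7% lower). The median log2 changes of the members were 0.87, 0.55 and 0.36, against 0.04, 0.10 and -0.09 for all genes tested. The summed share of polysome counts was 1.09, 1.09, 1.09 and 1.07% in the inhibitor libraries, above every 16 h library and below every control library. Without Atp5b the share was 0.869, 0.862, 0.876 and 0.854% in the inhibitor libraries, within the range of 0.833, 0.889, 0.823 and 0.882% in control libraries. In cytosolic RNA the share was 1, 0.916, 0.964 and 0.954% with the inhibitor, against 0.698, 0.79, 0.776 and 0.742% at 16 h. With offsets corrected for coding length, 33 members were called in cytosolic RNA in place of 66, 20 higher and 13 lower, and the medians were 0.08 in cytosolic and 0.46 in polysome RNA. Members lower in cytosolic RNA numbered 10 with DESeq2 and 11 when only the 2 conditions were fitted, in place of 6. Members lower in efficiency numbered 7 in place of 12, both with the offsets and without the 4 cytosolic libraries that deviated together. A solvent effect cannot be told apart from that of the inhibitor.

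**Figure D2:**
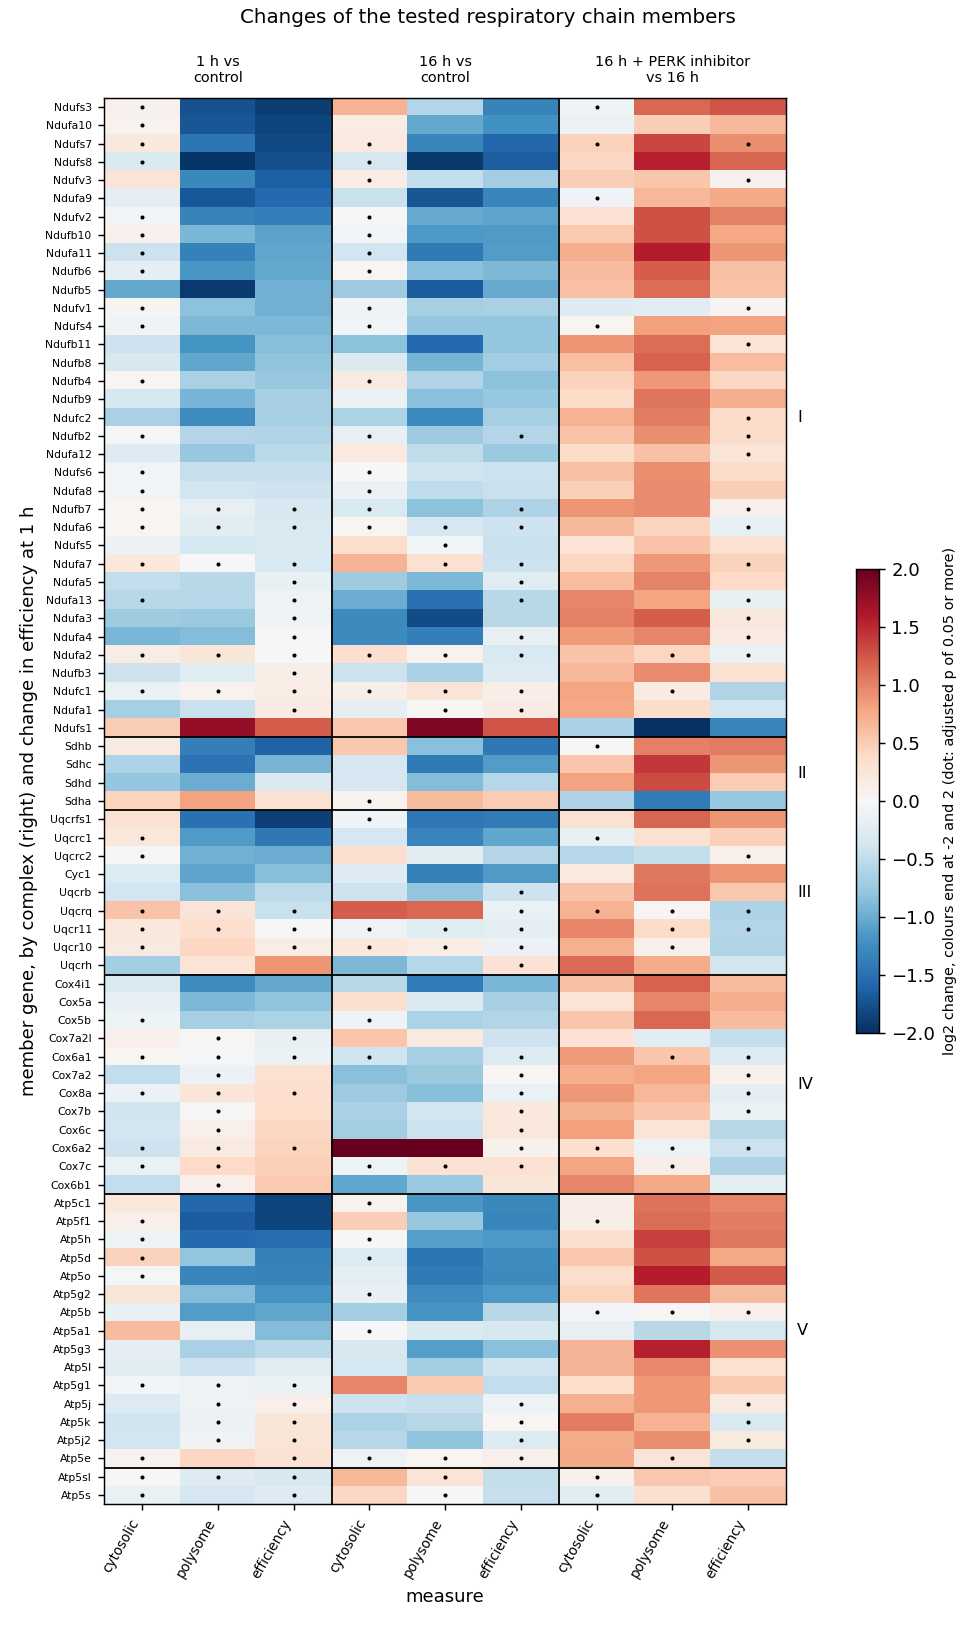
Log2 changes (colour, red higher and blue lower, ending at -2 and 2) of 77 of the 78 tested members (rows, by complex and by change in efficiency at 1 h) in cytosolic RNA, polysome RNA and translational efficiency for 3 comparisons. Dots mark changes that were not called. Blue prevails in polysome RNA and efficiency at 1 h and 16 h, and red with the inhibitor, with Ndufs1 and Sdha going the opposite way.

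Complex I, with 36 members tested, held both the deepest falls and the strongest exception. In polysome RNA 30 members fell and 1 rose at 1 h, 29 fell and 1 rose at 16 h, and 32 rose and 2 fell with the inhibitor against 16 h. Of all genes, 38.5% fell at 1 h, 42.9% fell at 16 h and 42.1% rose with the inhibitor. Translational efficiency fell for 24 and rose for 1 at 1 h, and fell for 25 and rose for 1 at 16 h, where 34.4% and 33% of all genes fell. In cytosolic RNA 13 fell and 3 rose at 1 h, where 56.2% of all genes were called, 28.1% lower. The summed complex I share of polysome counts was 0.166 ± 0.00415% at 1 h and 0.168 ± 0.0079% at 16 h, against 0.303 ± 0.0142% in control (SD, n = 4), and it was 0.281 ± 0.0044% with the inhibitor.

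The single complex I member that rose in polysome RNA and in efficiency was Ndufs1 (GRCm38 chr1:63143596-63176833, minus strand), which encodes the large iron-sulfur subunit of the electron input module and has the longest coding sequence of all members, 2181 nt. In polysome RNA it was at 172, 171, 158 and 176 CPM at 1 h and 175, 184, 186 and 171 CPM at 16 h, against 47.6, 49.6, 56.5 and 45.6 CPM in control. In the inhibitor libraries it was at 43.0, 46.1, 45.7 and 46.5 CPM. Every stressed library without inhibitor was above every control library, and the inhibitor libraries overlapped control. The log2 changes were 1.76 ± 0.0589 at 1 h, 1.85 ± 0.0588 at 16 h and -1.98 ± 0.0588 with the inhibitor (SE, edgeR quasi-likelihood test, Benjamini-Hochberg adjusted p = 2.03e-16, 5.99e-17 and 2.72e-17). Cytosolic Ndufs1 RNA also rose, by 0.49 ± 0.0667 at 1 h and 0.54 ± 0.0664 at 16 h. Its translational efficiency, fitted separately, rose by 1.21 ± 0.105 and 1.26 ± 0.104 and fell by 1.32 with the inhibitor. With offsets corrected for coding length the efficiency changes kept their sign, as they did under every alternative run.

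Ndufs3 and Ndufs8, which encode core subunits of the peripheral arm, moved the other way in polysome RNA. Ndufs3 in polysome RNA was at 20.6, 18.5, 20.5 and 20.9 CPM at 1 h, against 66.0, 70.3, 70.4 and 63.9 CPM in control. It was at 99.2, 102.2, 99.9 and 99.2 CPM with the inhibitor, against 42.3, 48.1, 45.4 and 45.3 CPM at 16 h. No 2 of these 4 groups overlapped, and the inhibitor libraries were the highest. Its cytosolic RNA was 37.0, 35.5, 37.8 and 36.9 CPM at 1 h, against 36.6, 31.2, 34.1 and 36.9 CPM in control, which was not called (log2 change 0.08), while at 16 h it rose by 0.70 ± 0.0523. Translational efficiency of Ndufs3 changed by -1.90 ± 0.0901 at 1 h and 1.25 ± 0.0864 with the inhibitor (SE, edgeR quasi-likelihood test, Benjamini-Hochberg adjusted p = 1.94e-12 and 5.89e-10), the lowest and the highest values among the members in these comparisons. Ndufs8 in polysome RNA was at 28.0, 27.4, 31.6 and 26.6 CPM at 1 h and 30.0, 28.5, 23.4 and 34.2 CPM at 16 h, against 105.3, 121.8, 84.6 and 130.5 CPM in control. Both stressed groups lay wholly below control, with log2 changes of -1.96 ± 0.128 and -1.93 ± 0.126, and cytosolic Ndufs8 RNA was not called at either time (-0.28 and -0.34).

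Other members of complex I filled the range between. Ndufv1, a core subunit of the NADH site, fell in translational efficiency by 0.95 on the log2 scale at 1 h and by 0.65 at 16 h. In polysome RNA it fell by 0.81 at 1 h. With the inhibitor its efficiency change of 0.05 was not called. The accessory subunits Ndufa9 and Ndufa10 fell in polysome RNA by 1.69 and 1.71 at 1 h, and Ndufs7, an iron-sulfur subunit, fell in efficiency by 1.57 at 16 h. In Ndufb5, an accessory subunit of the membrane arm, both kinds of RNA fell at 1 h, with log2 changes of -1.03 ± 0.0540 in cytosolic and -1.91 ± 0.0591 in polysome RNA. Ndufv3, an accessory subunit of the NADH site, had the highest change in efficiency at 16 h against 1 h, 0.93 ± 0.110. Ndufa11, of the membrane arm, rose by 1.58 ± 0.163 in polysome RNA with the inhibitor, the highest value among the members there.

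Ndufa4, now known to be a subunit of complex IV and placed here by its symbol, was at 194, 221, 185 and 200.4 CPM in cytosolic RNA at 1 h and 162, 158, 150.2 and 154 CPM at 16 h, against 431, 338, 375 and 369 CPM in control. With the inhibitor it was at 282, 282, 257 and 299.8 CPM. The 1 h and 16 h groups lay wholly below control, and the inhibitor group lay between 16 h and control without overlapping either. The log2 changes were -0.92 ± 0.0711 and -1.28 ± 0.0716 against control and 0.85 ± 0.0710 with the inhibitor (SE, edgeR quasi-likelihood test, Benjamini-Hochberg adjusted p = 9.56e-09, 3.74e-11 and 9.9e-09), while its efficiency was not called in any of these comparisons (-0.01, -0.15 and 0.16). Ndufa3, an accessory subunit, changed in cytosolic RNA by -1.27 at 16 h and 1.00 with the inhibitor. Ndufa13, also known as GRIM-19, varied widely between replicates (32.8 to 63.5 CPM in control polysome RNA) and fell in polysome RNA by 0.91 at 16 h against 1 h.

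**Figure D3:**
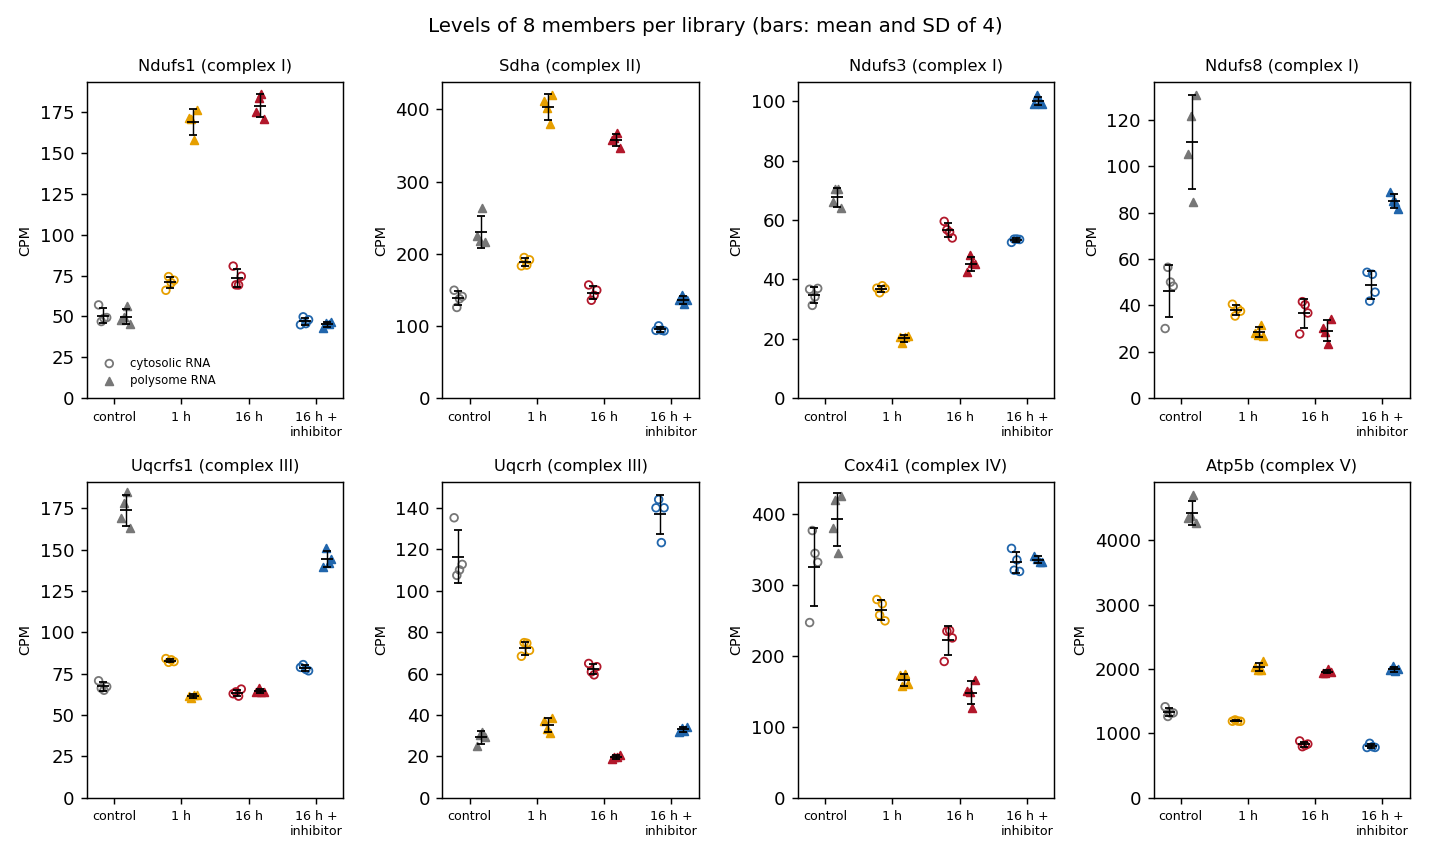
Levels in CPM (vertical axes, linear, from 0) of 8 members in cytosolic RNA (open circles) and polysome RNA (filled triangles) per library in the 4 conditions, with mean and SD. Ndufs1 and Sdha are high in polysome RNA at 1 h and 16 h, Ndufs3, Ndufs8, Uqcrfs1 and Cox4i1 are low there, and Atp5b stays low with the inhibitor.

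In complex II the flavoprotein subunit gene Sdha (GRCm38 chr13:74322254-74350280, minus strand) moved against its 3 partners. Sdha in polysome RNA was at 412, 401, 379.9 and 420.5 CPM at 1 h and 358, 359.8, 367 and 347 CPM at 16 h, against 224, 217, 263 and 217 CPM in control. With the inhibitor it was at 135.9, 143.3, 130.3 and 135.5 CPM, below every library of the other 3 conditions. Its log2 changes were 0.81 ± 0.0549, 0.64 ± 0.0548 and -1.39 ± 0.0556 (SE, edgeR quasi-likelihood test, Benjamini-Hochberg adjusted p = 2.35e-11, 9.07e-10 and 3.16e-15). Its coding sequence of 1992 nt is the next longest among the members after that of Ndufs1. The iron-sulfur subunit gene Sdhb and the membrane anchor genes Sdhc and Sdhd fell in polysome RNA at 1 h by 1.36, 1.48 and 0.99, and rose with the inhibitor by 1.00, 1.42 and 1.30. For Sdhb the cytosolic change at 1 h was 0.18 ± 0.0722, a call lost without any 1 of the 4 libraries at 1 h or without control replicate 1 or 4 (0.10 to 0.19), and its efficiency fell by 1.61. In cytosolic RNA Sdhd was at 107.6 to 110.5 CPM in the 4 libraries at 1 h, against 185, 184, 187 and 193 CPM in control. With the inhibitor cytosolic Sdhd was at 258, 263, 257 and 262 CPM, against 152, 146.6, 148.2 and 146.3 CPM at 16 h, and none of these 4 groups overlapped. Cytosolic log2 changes of Sdhd were -0.77 ± 0.0334 at 1 h and 0.81 ± 0.0332 with the inhibitor.

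In complex III, with 9 members, the subunits of the electron path fell and the small ones did not do so uniformly. Polysome RNA fell for 5 and rose for 2 at 1 h, fell for 6 and rose for 1 at 16 h, and rose for 5 and fell for 1 with the inhibitor. The shares of all genes called in either direction were 79.5%, 85.1% and 82.8%, and the members called were not above these shares. By direction, 38.5% of all genes fell at 1 h, 42.9% fell at 16 h and 42.1% rose with the inhibitor. Uqcrfs1, which encodes the Rieske iron-sulfur protein, was at 61.6, 60.1, 62.2 and 62.4 CPM in polysome RNA at 1 h, against 169, 178, 185 and 163 CPM in control. It was at 139.5, 151, 142.1 and 144.2 CPM with the inhibitor, against 63.9, 66.4, 64.2 and 63.8 CPM at 16 h. Libraries at 1 h and 16 h were all below those of the other 2 conditions, although cytosolic Uqcrfs1 rose by 0.30 ± 0.0385 at 1 h. Its efficiency changed by -1.86 ± 0.0673, -1.39 ± 0.0668 and 0.88 ± 0.0665 in these comparisons (SE, edgeR quasi-likelihood test, Benjamini-Hochberg adjusted p = 6.91e-14, 3.08e-12 and 2.08e-09). The core protein gene Uqcrc1 and the cytochrome c1 gene Cyc1 fell in efficiency at 1 h by 1.44 and 0.85. In polysome RNA they changed by -1.13 ± 0.0802 and -1.06 ± 0.0442 at 1 h. Uqcrc2, the other core protein gene, fell by 0.56 in cytosolic RNA with the inhibitor.

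The hinge protein gene Uqcrh showed opposite moves in the 2 kinds of RNA. In cytosolic RNA it was at 68.3, 74.9, 74.6 and 71.2 CPM at 1 h, against 107.4 to 135.2 CPM in the 4 control libraries. In polysome RNA it was at 37.2, 33.2, 31.3 and 38.3 CPM at 1 h, against 24.9, 30.5, 31.6 and 29.5 CPM in control. The cytosolic groups did not overlap, and in polysome RNA the lowest 1 h library was within the control range. Cytosolic Uqcrh fell by 0.69 and its efficiency rose by 0.88 ± 0.130 (SE, edgeR quasi-likelihood test, Benjamini-Hochberg adjusted p = 7.44e-06), next among the members after Ndufs1. Relative to 1 h, its efficiency at 16 h changed by -0.59 ± 0.131, and with the inhibitor its cytosolic RNA rose by 1.14 ± 0.0693, the highest cytosolic rise of that comparison. Uqcrq, another small subunit, was called higher at 16 h in cytosolic RNA, at 34.7, 120.9, 100.6 and 68.8 CPM, against 15.2, 59.0, 35.7 and 30.4 CPM in control. These groups overlapped, and the lowest library of each was one of those that stood apart, so that the change of 1.21 ± 0.420 (SE, edgeR quasi-likelihood test, Benjamini-Hochberg adjusted p = 0.0162) has a wide error. It was not called without control replicate 1 (0.96) or without 16 h replicate 2 (0.96), and was called without both libraries that stood apart (1.22).

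Complex IV had the highest median change in efficiency of the 5 complexes at 1 h. Of its 12 tested members 3 fell in polysome RNA, where 38.5% of all genes fell. Translational efficiency rose for 5 and fell for 3, where 33.4% of all genes rose and 34.4% fell. Its median log2 change was 0.32, against -0.67 for complex I and -0.87 for complex V. A test of that difference between complexes was not made, and the members of complex IV have the shortest coding sequences (median 274.5 nt, against 439.5 nt in complex I and 438 nt in complex V). At 16 h 9 members fell and 2 rose in polysome RNA (42.9% of all genes fell), and with the inhibitor 8 rose and 1 fell (42.1% of all genes rose). In cytosolic RNA 11 of 12 rose with the inhibitor (42.2% of all genes rose), with Cox5a at 0.27 as the lowest and Cox6b1 at 0.98 as the highest value. Under the length offsets, cytosolic Cox5a (-0.15) and Cox7a2l (-0.32) were called lower with the inhibitor.

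Cox4i1 and Cox5a, early-assembling subunits around the catalytic core, were among the 3 that fell in polysome RNA. Cox4i1 was at 173, 157, 174 and 160.1 CPM at 1 h and 151, 149.6, 126.5 and 166 CPM at 16 h, against 381, 419.5, 345 and 425 CPM in control. Inhibitor libraries had 342, 337, 332 and 332 CPM. Both stressed groups lay wholly below control, and the inhibitor group lay below all control libraries and far above 16 h. The log2 changes were -1.24 ± 0.0719, -1.41 ± 0.0720 and 1.18 ± 0.0716 (SE, edgeR quasi-likelihood test, Benjamini-Hochberg adjusted p = 2.76e-12, 2.85e-13 and 5.29e-12). Cox5a changed by -0.90 ± 0.0628 at 1 h in polysome RNA and by 0.32 ± 0.0510 in cytosolic RNA at 16 h. With offsets corrected for coding length its cytosolic change at 1 h and its polysome change at 16 h turned to the other sign and were not called.

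Cox6b1, which bridges the monomers of the oxidase, fell in cytosolic RNA and rose in efficiency. In cytosolic RNA it was at 68.6, 71.0, 66.9 and 68.9 CPM at 1 h and 46.9, 48.2, 47.9 and 45.9 CPM at 16 h, against 92.0, 95.5, 98.8 and 101.6 CPM in control, and all groups were separate. In polysome RNA it was at 26.9, 29.9, 28.8 and 31.2 CPM at 1 h, against 23.4, 28.8, 27.9 and 28.7 CPM in control, with overlap and no call (log2 change 0.10). Its cytosolic RNA fell by 0.49 at 1 h and 1.04 at 16 h, and its efficiency rose by 0.53 ± 0.0763 at 1 h and 0.25 ± 0.0768 at 16 h, the 16 h value being 0.19 and not called without the libraries that stood apart and 0.18 and not called without the 4 that deviated together. The other members with higher efficiency at 1 h were Cox6c, Cox7a2, Cox7b and Cox7c (0.41, 0.31, 0.36 and 0.48), all peripheral subunits of the oxidase. With the inhibitor, efficiency of Cox7c fell by 0.61, a call lost without the 4 cytosolic libraries that deviated together (-0.57). The call of Cox7a2 was lost without control replicate 1 or 4 or 1 h replicate 1, 2 or 4 (0.17 to 0.33), without the libraries that stood apart or the 4 that deviated together (0.18), and with offsets corrected for coding length (-0.04). Cox8a, a short subunit, fell by 1.10 in polysome RNA at 16 h against 1 h, the lowest value of that comparison.

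The isoform sets of complex IV split. Cox6a2, the isoform known from heart and skeletal muscle, was at 3.13, 7.95, 6.70 and 4.01 CPM in cytosolic RNA at 16 h, against 0.351, 0.660, 0.391 and 0.308 CPM in control. With the inhibitor it was at 7.76, 4.33, 7.94 and 7.39 CPM, overlapping 16 h, and at 1 h at 0.434, 0.173, 0.346 and 0.362 CPM, overlapping control. The log2 changes at 16 h were 3.66 ± 0.364 in cytosolic and 3.75 ± 0.331 in polysome RNA (SE, edgeR quasi-likelihood test, Benjamini-Hochberg adjusted p = 1.21e-07 and 1.36e-09), from a control level under 1 CPM. Polysome Cox6a2 was at 0.1004 to 0.1497 CPM in control, against 0.9414 to 2.225 CPM at 16 h, without overlap. Its control level was close to what a count of 0 allows (0.155 CPM in the smallest library). The size of the polysome rise is therefore uncertain. The summed level of 9 muscle markers was 1.98 to 2.61 CPM at 16 h, against 8.08 to 10 CPM in control. Of these markers Tnnt2 averaged 2.11 CPM at 16 h and 6.87 CPM in control, Myh1 0.102 CPM at 16 h and 1.66 CPM in control, Ckm 0.1 CPM at 16 h and 0.0231 CPM in control, and Myog was at 0 in all 4 conditions. Its widely expressed counterpart Cox6a1 was not called in cytosolic RNA at 16 h (-0.40). Cox7a2l, which is known to stabilise supercomplexes of complexes III and IV, rose by 0.55 ± 0.0330 in cytosolic RNA at 16 h, whereas Cox7a2 fell by 0.83. The efficiency of Cox7a2l fell by 0.42 at 16 h and by 0.47 with the inhibitor.

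Complex V had 15 members tested. In polysome RNA 10 of 15 fell and 1 rose at 1 h, 13 fell and 1 rose at 16 h, and 12 rose and 1 fell with the inhibitor. Of all genes, 38.5% fell at 1 h, 42.9% fell at 16 h and 42.1% rose with the inhibitor. Translational efficiency fell for 10 at 1 h and for 11 at 16 h, where 34.4% and 33% of all genes fell. The summed share of polysome counts was 0.376 ± 0.00777% at 1 h and 0.374 ± 0.00379% at 16 h, against 0.679 ± 0.0138% in control (SD, n = 4), and 0.521 ± 0.00279% with the inhibitor. Atp5b weighs heavily in this sum. Leaving it out of all members changed their mean share from 1.27 to 0.857% in control and from 1.09 to 0.865% with the inhibitor. Over all members, the gap between inhibitor and control thus closed without Atp5b. The share of complex V without Atp5b was not computed.

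Unlike most of complex V, the genes of its alpha and beta subunits were not called higher in polysome RNA with the inhibitor. Atp5b, the beta subunit, was at 2030.0, 1981, 1989 and 2127 CPM in polysome RNA at 1 h and 1944, 1944, 1999 and 1948 CPM at 16 h, against 4342, 4371, 4706 and 4272 CPM in control. With the inhibitor it was at 1979, 2049, 1963 and 1995 CPM, overlapping 16 h and far below control. Its log2 changes were -1.12 ± 0.0370 and -1.18 ± 0.0370 against control, and that with the inhibitor, 0.03 ± 0.0366, was not called (SE, edgeR quasi-likelihood test, Benjamini-Hochberg adjusted p = 1.68e-16, 5e-17 and 0.488). Atp5a1, the alpha subunit, rose in cytosolic RNA at 1 h by 0.63 ± 0.0415, the highest cytosolic rise of that comparison, while its efficiency changed by -0.87 ± 0.0535. With the inhibitor its polysome RNA fell by 0.55. Both have coding sequences far above the median of the members.

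Atp5c1, the gamma subunit of the rotor, showed the pattern of most of the complex. In polysome RNA it was at 120.1, 118.9, 119.7 and 132.1 CPM at 1 h, against 354, 376, 387 and 344 CPM in control, with no overlap. It was at 329, 357, 340.3 and 354 CPM with the inhibitor, against 151, 174, 163 and 162 CPM at 16 h, again with no overlap. Cytosolic Atp5c1 rose by 0.21 ± 0.0587 at 1 h, and its efficiency changed by -1.85 ± 0.0882 at 1 h and 0.97 ± 0.0873 with the inhibitor (SE, edgeR quasi-likelihood test, Benjamini-Hochberg adjusted p = 2.05e-12 and 1.94e-08). Atp5f1, subunit b of the stator, fell in efficiency by 1.84 at 1 h and rose in polysome RNA by 0.91 at 16 h against 1 h. Atp5o, the stator subunit OSCP, rose by 1.56 ± 0.0491 in polysome RNA and 1.23 ± 0.0644 in efficiency with the inhibitor. Its symbol has 2 loci in the annotation, so its reads cannot be placed with certainty. Atp5d, the delta subunit, fell by 0.75 in cytosolic RNA at 16 h against 1 h. Among the short subunits, Atp5e (epsilon) rose in polysome RNA at 1 h by 0.41, Atp5k (subunit e) rose in cytosolic RNA with the inhibitor by 1.03, and efficiency of Atp5j2 (subunit f) fell by 0.52 at 16 h against 1 h. The Atp5e call was lost without control replicate 1 or 3 or 1 h replicate 1 (0.31 to 0.36), and the Atp5j2 call without 16 h replicate 2 or 3 or 1 h replicate 1, 3 or 4 (-0.55 to -0.39).

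Subunit c, which forms the rotor ring of the ATP synthase, is made from 3 genes, Atp5g1, Atp5g2 and Atp5g3, that encode the same mature protein behind different import sequences. Their cytosolic levels moved apart at 16 h, so the 250 bases upstream of their RefSeq starts (GRCm38.p6) are shown here together with those of Sdhd, 5′ to 3′ on the strand of the gene, with any match to 4 motifs in capitals.
Atp5g1 (chr11:96075632-96075881, minus strand): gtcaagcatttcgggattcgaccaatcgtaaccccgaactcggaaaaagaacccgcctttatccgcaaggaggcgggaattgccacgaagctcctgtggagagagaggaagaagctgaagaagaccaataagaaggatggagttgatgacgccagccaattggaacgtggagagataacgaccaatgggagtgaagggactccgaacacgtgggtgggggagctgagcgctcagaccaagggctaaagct
Atp5g2 (chr15:102671048-102671297, minus strand): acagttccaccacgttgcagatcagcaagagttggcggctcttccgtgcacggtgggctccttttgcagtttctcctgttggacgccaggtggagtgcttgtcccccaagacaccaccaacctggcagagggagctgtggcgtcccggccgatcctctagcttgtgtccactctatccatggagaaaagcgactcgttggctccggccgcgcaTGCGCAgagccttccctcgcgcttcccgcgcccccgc
Atp5g3 (chr2:73911327-73911576, minus strand): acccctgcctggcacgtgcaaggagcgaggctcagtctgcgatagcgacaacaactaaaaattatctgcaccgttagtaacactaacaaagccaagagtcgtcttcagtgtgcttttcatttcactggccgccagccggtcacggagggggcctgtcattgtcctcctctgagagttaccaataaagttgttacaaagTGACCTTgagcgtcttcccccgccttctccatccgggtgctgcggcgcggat
Sdhd (chr9:50603850-50604099, minus strand): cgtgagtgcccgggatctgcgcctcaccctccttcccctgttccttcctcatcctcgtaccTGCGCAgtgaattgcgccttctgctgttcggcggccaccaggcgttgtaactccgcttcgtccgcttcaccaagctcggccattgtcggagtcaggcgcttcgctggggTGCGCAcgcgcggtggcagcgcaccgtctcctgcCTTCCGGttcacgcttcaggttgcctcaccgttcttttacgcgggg
The motifs were TGCGCA (core of NRF1, nuclear respiratory factor, the same on both strands), CCGGAAG (ETS factors such as GABPA), AAGGTCA (ERR nuclear receptors) and ATGGCGG (YY1), each searched on both strands. In the windows shown, Atp5g1 held none, Atp5g2 the NRF1 core 31 bases before its start, Atp5g3 the ERR core on the antisense strand 45 bases before its start, and Sdhd the ETS core on the antisense strand 39 bases before its start and the NRF1 core at 2 places, 74 and 183 bases before it. In the GENCODE annotation 39 bases of the Atp5g1 window and 80 bases of the Atp5g2 window lie in exons of the same gene, and none of the other 2 windows. A match describes letters and is not evidence of binding.

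Atp5g1 was the subunit c gene that rose. In cytosolic RNA it was at 279, 340.5, 379 and 338 CPM at 16 h, against 128.1, 185, 179.7 and 188 CPM in control. With the inhibitor it was at 450.5, 417, 444 and 402 CPM, and all 3 groups were separate. Its log2 changes were 0.97 ± 0.111 at 16 h and 0.36 ± 0.109 with the inhibitor (SE, edgeR quasi-likelihood test, Benjamini-Hochberg adjusted p = 5.56e-07 and 0.00742), and the change with the inhibitor turned to -0.23, called lower, with offsets corrected for coding length. Atp5g2 ranged over 96.4 to 127.2 CPM at 16 h, against 99.0, 144.7, 133.1 and 138.9 CPM in control, overlapping and not called (-0.14). Atp5g3 was at 122.4, 134.9, 129.7 and 121.4 CPM, against 169, 152, 155 and 161 CPM in control, a fall of 0.33 without overlap. In polysome RNA Atp5g1 rose by 0.53 ± 0.0823 at 16 h, and Atp5g2 and Atp5g3 changed by -1.24 ± 0.0695 and -1.10 ± 0.0616. With the inhibitor polysome RNA of all 3 rose, by 0.87, 1.06 and 1.56. Reads of these genes can be shared with processed pseudogenes, which the counting, not described in the sources used here, may have split.

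**Figure D4:**
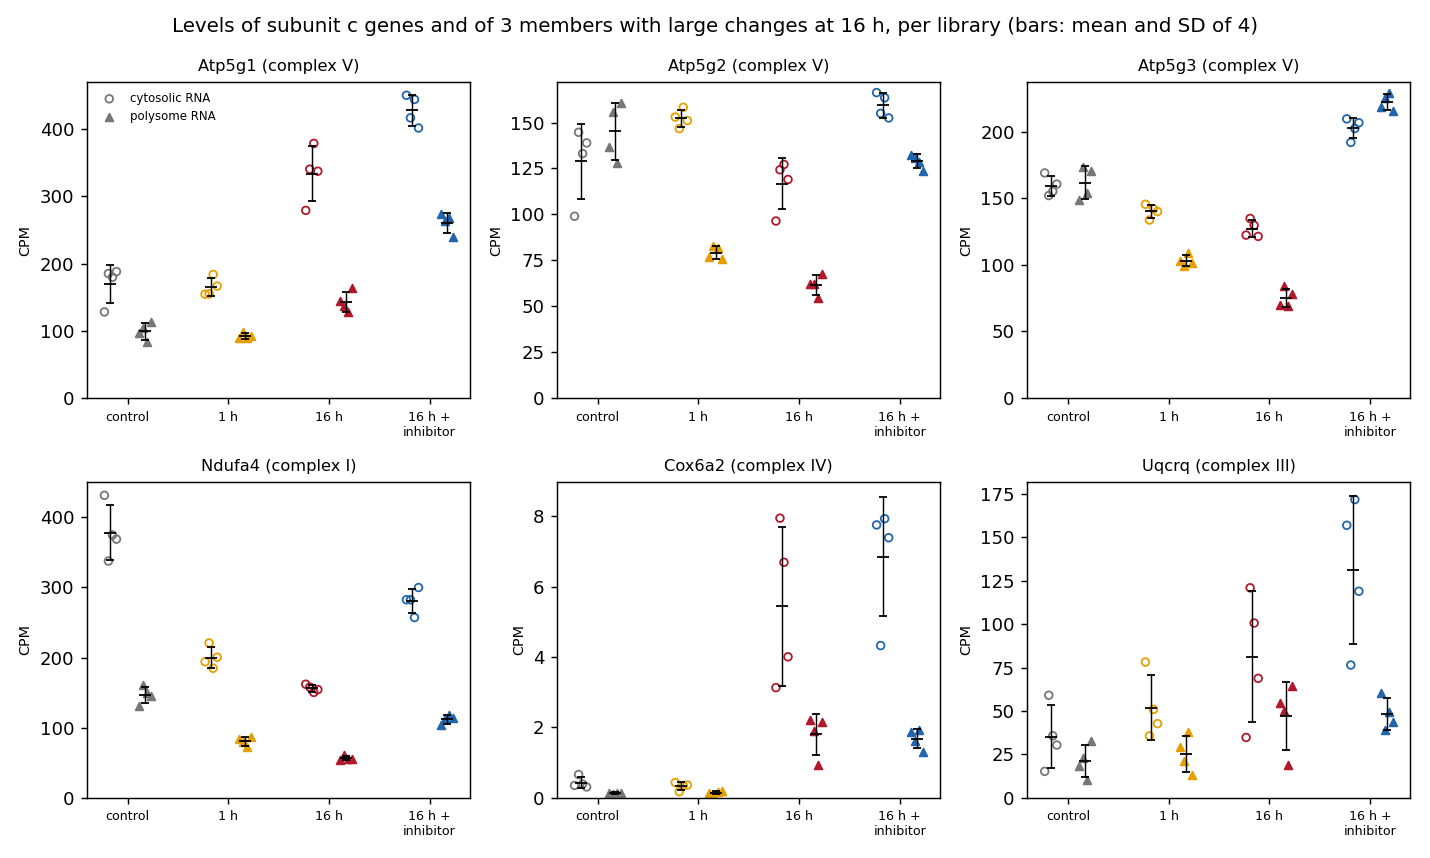
Levels in CPM (vertical axes, linear, from 0) of the 3 genes of ATP synthase subunit c and of Ndufa4, Cox6a2 and Uqcrq in cytosolic RNA (open circles) and polysome RNA (filled triangles) per library, with mean and SD of 4. Atp5g1 is higher at 16 h than in control while Atp5g3 is lower, Cox6a2 is low in control and higher at 16 h, and Uqcrq spreads widely within each condition.

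Atp5s, a factor associated with ATP synthase, and Atp5sl, whose human counterpart takes part in complex I assembly, encode no subunits and were not called in cytosolic RNA at 1 h (-0.13 and 0.00). At 16 h they rose in cytosolic RNA by 0.42 ± 0.130 and 0.67 ± 0.0993, and their efficiency fell by 0.46 and 0.48. With the inhibitor their polysome RNA rose by 0.33 and 0.54, and with offsets corrected for coding length both turned negative (-0.35, called, and -0.09, not called). With these offsets the efficiency of Atp5sl at 16 h turned to 0.09 and was not called. Calls in efficiency at 16 h were lost for Atp5s without 16 h replicate 1, 2 or 4 or control replicate 2 or 3 (-0.45 to -0.36) and for Atp5sl without 16 h replicate 2 or 3 or control replicate 1 or 4 (-0.46 to -0.36). The polysome call of Atp5s with the inhibitor was lost without 16 h replicate 4 (0.26).

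The changes in efficiency went with coding length. The 78 tested members have coding sequences of 156 to 2181 nt (median 430.5), against a median of 1416 nt over all tested genes. In bins chosen after the data were seen, the median efficiency change of the members at 1 h was 0.27 for 18 members under 300 nt, -0.32 for 25 members from 300 to under 450 nt, -0.96 for 17 members from 450 to under 750 nt, -1.84 for 9 members from 750 to under 1200 nt and -0.99 for 9 members from 1200 nt on. Other genes in these bins had medians of 0.65, 0.24, -0.22, -0.47 and 0.19, so the members lay lower in each bin. At 16 h the member medians were 0.06, -0.56, -1.01, -1.30 and -0.58, against 0.37, -0.02, -0.34, -0.46 and 0.23 for other genes. With the inhibitor they were -0.37, 0.37, 0.77, 0.88 and 0.05, against -0.57, -0.10, 0.33, 0.30 and -0.36. With offsets corrected for coding length, the median efficiency change of the members was -0.66 at 1 h and -0.47 at 16 h, and 54 and 52 members were called. With the inhibitor, cytosolic RNA rose for 16 of 18, 25 of 25 and 14 of 17 members in the 3 shortest bins, where 74%, 71.8% and 59% of other genes rose. In the 2 longest bins it rose for 3 of 9 and 2 of 9 members and fell for 1 and 5, with medians of 0.09 and -0.17, where 44.6% and 34.4% of other genes rose, with medians of 0.14 and -0.05.

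**Figure D5:**
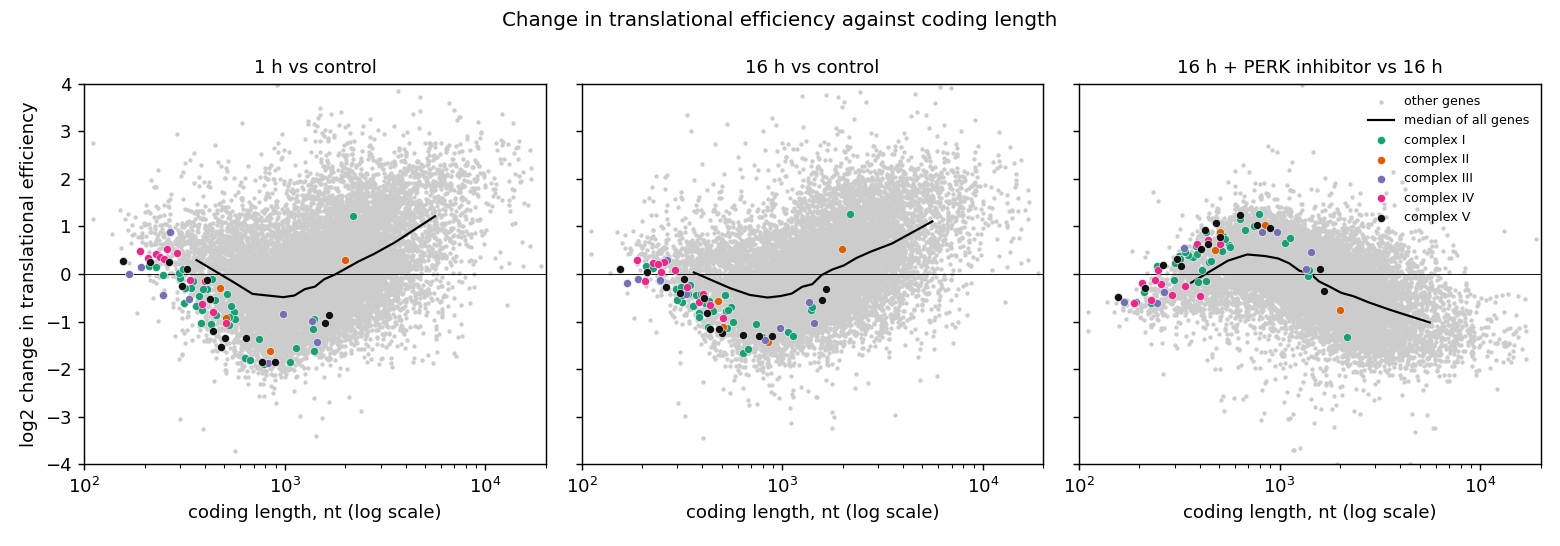
Log2 change in translational efficiency (vertical axis) against coding length in nt (horizontal axis, log scale) for the subunits (coloured by complex), other genes (grey) and the median of all genes in bins of length (line), in 3 comparisons. In each of the 5 length bins of the text the members' median is below that of other genes at 1 h and 16 h and above it with the inhibitor, and Ndufs1, the longest, is at 1.21 at 1 h.

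Other gene groups tied to the chain moved in part alike. Their counts at 1 h stand against 34.4% of all genes lower in efficiency and 33.4% higher. Efficiency at 1 h fell for 54 of 75 mitochondrial ribosomal proteins and rose for 5, fell for 10 of 13 TCA cycle genes and rose for 2, and fell for 23 of 45 assembly factors and rose for 7. In the TCA cycle, Mdh2 (malate dehydrogenase) was lowest at -1.61 and Ogdh (a subunit of oxoglutarate dehydrogenase) highest at 0.88. Lrpprc, an RNA-binding protein needed for mitochondrial mRNAs, had the highest efficiency change of the assembly factors, 1.73, and Tmem126b, a complex I assembly factor, the lowest, -1.63. Of 7 electron carriers and feeders 5 fell and 1 rose, with Etfb, a subunit of the electron transfer flavoprotein, at -1.98. Protein import genes were mixed, with 8 of 17 higher and 6 lower. The same counts were 59 lower and 3 higher of 79 cytosolic ribosomal proteins, and 36 lower and 1 higher of 37 proteasome subunits, which are not mitochondrial.

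Cytosolic counts at 16 h were read against 37.9% of all genes higher and 39.4% lower. Mitochondrial ribosomal proteins rose in 41 of 75 cases and fell in 13, with a median of 0.28, assembly factors rose in 18 of 45 and fell in 10, and TCA cycle genes rose in 9 of 13 and fell in 3, against 16 higher and 32 lower of 78 respiratory chain members. The share of assembly factors that rose, 40%, was near the background, and differences between the groups were not tested. Cytochrome c (Cycs) rose by 0.89 and Cox20, an assembly factor of complex IV, fell by 1.44. Of 12 regulators of mitochondrial biogenesis 5 rose and 1 fell at 16 h, a share higher near the background. Among them were the transcription factor genes Nrf1 (0.71), Tfam (0.70) and Tfb2m (1.02). With the inhibitor 8 of the regulators fell, where 32.5% of all genes fell, with Tfb1m at -1.2 and Tfb2m at -0.91. With the inhibitor, cytosolic RNA rose for all 4 of the further listed genes Atpif1, Usmg5, Higd1a and Higd2a, where 42.2% of all genes rose. Higd1a was at 1.40 and Atpif1, the inhibitor of ATP hydrolysis, at 0.71.

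Promoter letters were counted once over all members with an entry. RefSeq windows were found for 69 members, 75 in all. The NRF1 core was in 20% of them, the ETS core in 16%, the ERR core in 6.67% and the YY1 core in 8%, against 6.43%, 6.91%, 4.08% and 2.21% of all 32851 promoters of the table. At least 1 of the 4 was in 38.7% of the member windows, against 17.8% of all.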

How the data were processed

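RNA of 16 samples of mouse embryonic fibroblasts was measured as 32 libraries. The values used are the deposited counts per gene symbol, which the authors had not normalized. HISAT, DESeq2 1.9.23 and the build mm10 are named per the submitters' processing notes, and no source used here states the counting tool, strand setting or annotation. Overlapping genes and near-identical pseudogenes may therefore share reads. Levels are not compared between genes.

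Counts were fitted with edgeR 4.0.16 in R 4.3.3 (filterByExpr with a minimum count of 10 and a minimum total of 15, TMM factors, robust quasi-likelihood fits), with 16 libraries per kind of RNA and 12 residual degrees of freedom. Translational efficiency was the interaction of RNA kind and condition over all 32 libraries with the sample as a block. Its TMM factors came from all 32 libraries together, so its changes can differ from the polysome change minus the cytosolic change. P-values were adjusted by Benjamini-Hochberg over all genes in each of 12 tests, at 0.05. Standard errors are the log2 change divided by the root of the quasi-likelihood F. Levels in CPM use the library totals and TMM factors of the fit of the same kind of RNA. Coding lengths and exons came from GENCODE M21, promoters from RefSeq. The fits were also run on simulated data that held no trend with coding length and no libraries deviating together. That run does not bear on these features of the data.

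The members and gene lists were chosen with earlier results of these data known. Named were up to 3 members per direction, comparison and measure among those called at 5 CPM or more, core subunits, isoform sets and members that are no subunits. Alternatives were DESeq2 1.42.0, RLE factors, no filter, coding length offsets in 20 bins, only the conditions compared, a replicate block and leaving out each replicate, and, chosen after seeing the data, leaving out the libraries that stood apart or deviated together. No pair of libraries in a group was alike within sampling noise (lowest chi-square per degree of freedom 2.29 over 48 pairs). Values of 1 member are not reported here by name, though it is included in all counts and medians.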

Additional observations from a re-analysis of the deposited data

Results flagged for a closer look

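Over 144 groups of 4 libraries (17 members and the members' summed share of counts, in 8 groups each), 9 held a library far from the other 3, where chance flags about 1 in 20. In polysome RNA, Sdha was at 262.9 CPM in control replicate 3, against 216.8 to 223.9 CPM in the other control libraries. Ndufs3 was at 18.52 CPM in 1 h replicate 2 (others 20.5 to 20.9 CPM), and Atp5c1 at 132.1 CPM in 1 h replicate 4 (others 118.9 to 120.1 CPM). Uqcrfs1 was at 66.4 CPM in 16 h replicate 2 (others 63.8 to 64.18 CPM), and Atp5b at 1999 CPM in 16 h replicate 3 (others 1944 to 1948 CPM). In cytosolic RNA, Atp5g1 was at 128.1 CPM in control replicate 1 (others 179.7 to 188.1 CPM). With the PERK inhibitor, Sdha was at 100 CPM in replicate 2 (others 93.09 to 94.05 CPM), Ndufs3 at 52.45 CPM in replicate 1 (others 53.43 to 53.57 CPM) and Cox6a2 at 4.328 CPM in replicate 2 (others 7.395 to 7.936 CPM). The libraries of the Sdha value in control, the Atp5c1, Atp5b and Atp5g1 values were among those that stood apart over all genes. The Sdha and Cox6a2 values with the inhibitor were both of replicate 2, which was among the 4 cytosolic libraries that deviated together.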

How the results depend on the processing

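Of 4459 alternative values for 268 gene tests, 4253 kept direction and call, 182 were no longer called and 24 changed sign, all with coding length offsets. With these offsets, 33 members were called in cytosolic RNA for the inhibitor against 16 h, and 31 with the replicate block added, in place of 66. No other total of called members moved by over 1.5 times. The cause was not tested. Signs changed, with the offsets alone and then with the block, in cytosolic RNA at 1 h for Atp5g3 (0.0442, 0.04401) and Cox5a (0.06578, 0.06456), and with the inhibitor for Atp5g1 (-0.2348, -0.2271), Cox5a (-0.1525, -0.1511) and Cox7a2l (-0.3169, -0.3167). In polysome RNA they changed for Atp5s at 1 h (0.07152, 0.07774), Cox5a at 16 h (0.05968, 0.06008), and Atp5s (-0.3459, -0.3339) and Atp5sl (-0.08838, -0.07408) with the inhibitor. In efficiency they changed with the offsets for Cox7a2 at 1 h (-0.0412), Atp5sl at 16 h (0.08962), Cox6b1 (0.02077) and Cox7a2l (0.02597) at 16 h against 1 h, and Atp5sl (-0.006448) and Cox6b1 (0.01529) with the inhibitor. Leaving out 1 replicate gave, for 1 h, 16 h, 16 h against 1 h and the inhibitor, 35 to 41, 46 to 53, 38 to 44 and 61 to 65 members called in cytosolic RNA, 55 to 58, 65 to 68, 46 to 50 and 67 to 69 in polysome RNA, and 50 to 53, 50 to 56, 19 to 24 and 46 to 51 in efficiency. Same-numbered libraries correlated at -0.495 to 0.665 (cytosolic) and -0.479 to 0.574 (polysome), so numbers were not taken to pair samples. The replicate block gave 38, 48, 41 and 65 members called in cytosolic RNA and 57, 65, 51 and 68 in polysome RNA. Cytosolic and polysome libraries of 1 sample, tied by the design, correlated at -0.319 to 0.162, over 0.1 in 4 of 16 samples, and without the sample block (no replicate block) 54, 56, 26 and 51 members were called in efficiency.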
